A study of Homo sapiens with 2 samples.

Results

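A549 cells are a human lung carcinoma line. The L6 family of TM4SF proteins, measured here in these cells with and without TGF-β, comprises TM4SF1, TM4SF4, TM4SF5, TM4SF18, TM4SF19 and TM4SF20. All probe sets, the groups of short probes that stand for a transcript on the array, were taken whose annotated gene symbol is 1 of these 6 names. They numbered 10 of 54613 probe sets and covered 5 genes; TM4SF19 was not analysed here. The control culture received no TGF-β. The treated culture was given TGF-β at 1 ng/ml, its RNA was taken 12 h later, and RNA from each culture was hybridized to 1 Affymetrix array. Both cultures were unmodified A549 cells. Each value below is a signal from 1 array, no error between cultures can be given, and no p-value was computed.

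Proteins of the L6 family cross the membrane 4 times. They take their name from the tumor antigen L6, which is TM4SF1, and they share this layout, but little sequence, with the tetraspanins and the claudins. TM4SF1 is a surface protein of many carcinomas and of endothelial cells, TM4SF4 and TM4SF5 are known from epithelia of the intestine and liver and from tumors of these organs, and TM4SF20 is known from the intestine. The comparison was made to find membrane proteins whose genes respond to TGF-β and that could control regulated intramembrane proteolysis (RIP), in which membrane-bound transcription factors such as CREB3L1 are cut free by proteases of the Golgi. TM4SF20 entered the study through these arrays, so its change here is a description and not independent evidence. The study then narrowed the array genes by the location of their proteins. By PCR, it chose TM4SF20 as a gene whose fall persisted after knockdown of Smad4.

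The promoter of TM4SF20 is shown because its signal differed between the arrays by more than 2-fold, and those of TM4SF4 and TM4SF1 because they are expressed in the same cells and did not. Each is the 250 bases before the RefSeq start of the gene on the assembly GRCh38.p14, in the direction of transcription. Capitals mark matches on either strand to the Smad box CAGAC, to AGATAA, which binds factors of the GATA family, and to TATAAA, known from core promoters. The TM4SF20 window is chr2:227379307-227379556 (minus strand), that of TM4SF4 is chr3:149474447-149474696 (plus strand) and that of TM4SF1 is chr3:149377650-149377899 (minus strand).
TM4SF20: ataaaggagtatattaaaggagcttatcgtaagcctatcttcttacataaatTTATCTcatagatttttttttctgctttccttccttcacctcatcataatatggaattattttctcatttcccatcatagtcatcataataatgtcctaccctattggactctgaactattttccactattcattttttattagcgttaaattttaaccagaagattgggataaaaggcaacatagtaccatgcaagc
TM4SF4: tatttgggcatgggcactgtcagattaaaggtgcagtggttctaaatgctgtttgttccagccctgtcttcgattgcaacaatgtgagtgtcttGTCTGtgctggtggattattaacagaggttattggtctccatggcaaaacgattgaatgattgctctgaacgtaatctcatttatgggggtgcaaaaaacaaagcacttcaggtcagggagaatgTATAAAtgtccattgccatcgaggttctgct
TM4SF1: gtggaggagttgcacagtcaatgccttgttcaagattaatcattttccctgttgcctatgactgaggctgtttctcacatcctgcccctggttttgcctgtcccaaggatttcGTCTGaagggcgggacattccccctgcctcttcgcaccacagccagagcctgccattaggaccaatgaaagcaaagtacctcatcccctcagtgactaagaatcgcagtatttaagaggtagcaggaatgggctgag
The TM4SF20 promoter held no CAGAC, which 38.0% of 35097 promoters of this length hold, nor did those of TM4SF18 and TM4SF19, while those of TM4SF4, TM4SF1 and TM4SF5 held 1 each. It held 1 AGATAA, beginning 198 bases before the start, the sole match among the 6 family promoters of a motif that 9.17% of promoters hold. TATAAA, in 10.7% of promoters, occurred in that of TM4SF4 alone, beginning 31 bases before the start. TM4SF20 also had the most AT-rich window of the family, with 31.2% G and C against a median of 58% over all promoters. The AP-1 motif TGANTCA was found in the TM4SF19 promoter alone among the 6 and is in 6.57% of promoters. These matches describe letters in 250 bases and are not binding sites.

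TM4SF20 had a single probe set, 220639_at. Its signal was 1715 without TGF-β and 339 with it, well above the background level on both arrays, which was 45.8 for the control and 56.6 for TGF-β (the highest signal among 27 probe sets for Bacillus subtilis transcripts, absent from human cells). TM4SF20 was therefore 5.05-fold lower after 12 h of TGF-β. Among the 500 probe sets closest to it in brightness, none other had so low a ratio, 6 were at least 2-fold lower and 4 at least 2-fold higher. Among genes with both signals above background its fall was exceeded by those of EHF, an epithelial transcription factor, GDF15, a stress-induced cytokine, and SLCO4A1, an organic anion transporter.

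Of the 5 measured members, TM4SF20 was the 1 at least 2-fold lower, and none was at least 2-fold higher. Over all 12375 measured genes, each represented by its brightest probe set, 2.96% were at least 2-fold lower and 3.94% at least 2-fold higher. The lower share stood for 366 genes and moved with the handling of dim signals, to 204 genes with a floor at the background level, 134 with 50 added to each signal and 2395 without a filter. TM4SF20 was also 1 of the genes at least 5-fold lower, a class that held 0.299% of genes. Of the 37 genes in it, 4 had both signals above background, TM4SF20 among them, and the others rested on a signal at background. The TM4SF20 fold was under 5 after loess, after scaling by the array medians, and with 50 added to each signal. The median log2 fold change of the 5 members was -0.34, beside -0.03 for all genes. With 5 members this median is the value of TM4SF18, a dim gene. TM4SF20 and TM4SF4 (-0.57) lay below it and TM4SF1 (0.10) and TM4SF5 (0.29) above 0, so it does not describe a fall of the whole family.

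**Figure D1:**
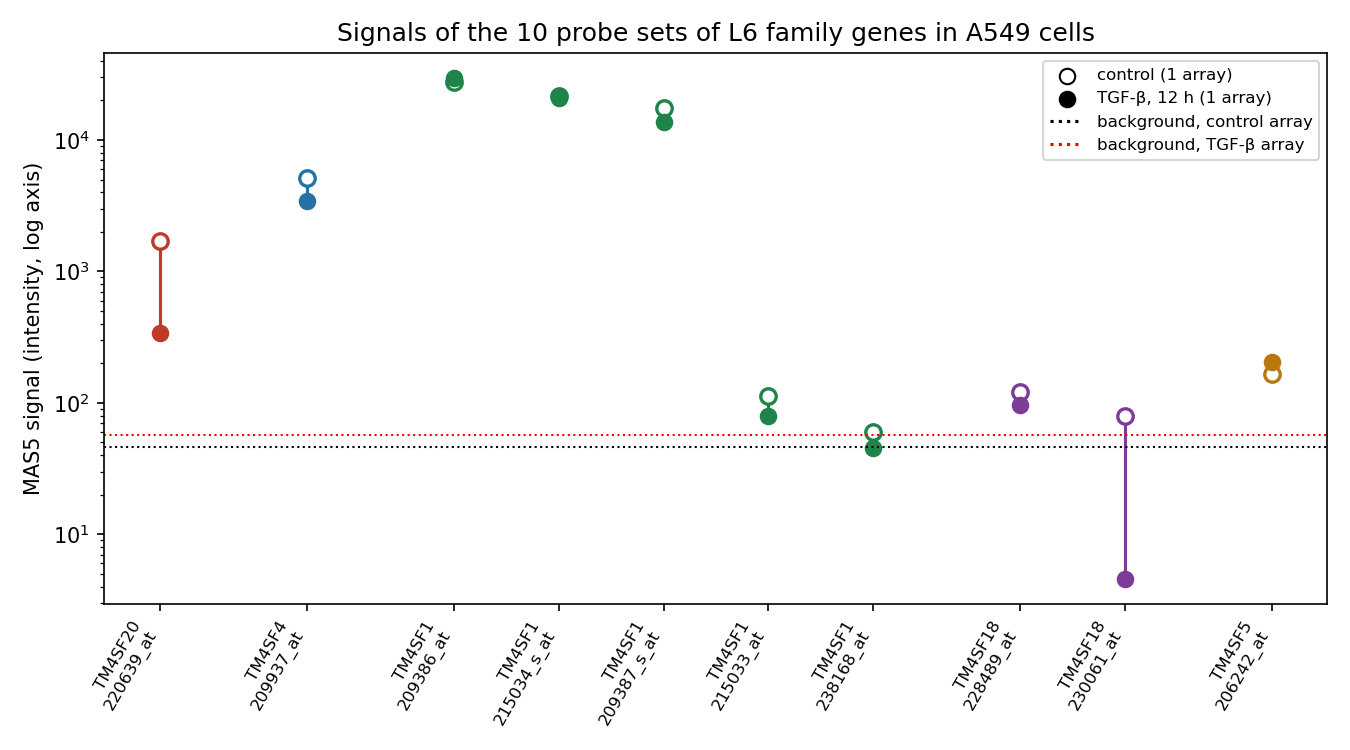
MAS5 signal (log axis) of each of the 10 probe sets of L6 family genes on the control array (open points) and the TGF-β array (filled points), with dotted lines at the background level of each array. TM4SF20 went from 1715 to 339, the bright probe sets of TM4SF1 lay almost together, and the second probe set of TM4SF18 ended below background.

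TM4SF4 lies in the same chromosome 3 cluster as TM4SF1 and TM4SF18 and had 1 probe set, 209937_at. Its signal was 5107 in the control culture and 3447 after TGF-β, which left 67.5% of the control signal, a 1.48-fold difference that did not reach 2-fold. Only 10 of the 500 probe sets of like brightness, TM4SF4 included, had so low a ratio. The spread of log2 fold changes among those probe sets was 0.23, against a log2 fold change of -0.57 for TM4SF4. This spread is over probe sets and not over replicate cultures. TM4SF4 was thus low for its brightness on this pair of arrays without passing the 2-fold rule.

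TM4SF1, the founding member, had 5 probe sets. Its brightest, 209386_at, gave 27659 without TGF-β and 29597 with it, a ratio of 1.07. The probe set 215034_s_at read 21580 and 20987, a ratio of 0.973. The third bright probe set, 209387_s_at, read 17645 and 13760, which is 1.28-fold lower. Like TM4SF4, this last one was low for its brightness, with 10 of 500 probe sets as low and a spread of 0.14 on the log2 scale. The deposited ratios of these 3 probe sets did not point in 1 direction, and the names of the last 2 mark them as able to bind more than 1 transcript. The dim probe set 215033_at read 112 and 78.7, and 238168_at went from 59.6 to 44.9, a TGF-β signal at background and at least 1.05-fold lower. The sign of the TM4SF1 value therefore depended on the probe set, and it also turned with quantile normalization, to a log2 fold change of -0.08. The 3 bright probe sets each lay below the median log2 fold change of probe sets of like brightness. That median was 0.15 for 209386_at, with 153 of 500 as low, and 0.12 for 215034_s_at, with 62 of 500 as low. No TM4SF1 probe set differed by 2-fold.

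TM4SF18, a little-studied member whose gene lies beside TM4SF1, had 2 probe sets. The brighter, 228489_at, went from 122 to 96.1, 1.26-fold lower, and the spread at this brightness was 0.46 on the log2 scale. The other, 230061_at, went from 79.1 to 4.54. Because the second of these signals is under the background level, the fall was at least 1.40-fold, and the probe set was too dim to be kept for gene counts. Both probe sets of TM4SF18 were thus lower after TGF-β, neither by 2-fold as far as the background level allows a fold to be given.

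TM4SF5 had 1 probe set, 206242_at, at 167 without TGF-β and 204 with it. The ratio was 1.23, with a log2 fold change of 0.29 and a spread of 0.47 at this brightness, so TM4SF5 did not stand out from probe sets of like signal. It was measured above background in both cultures.

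**Figure D2:**
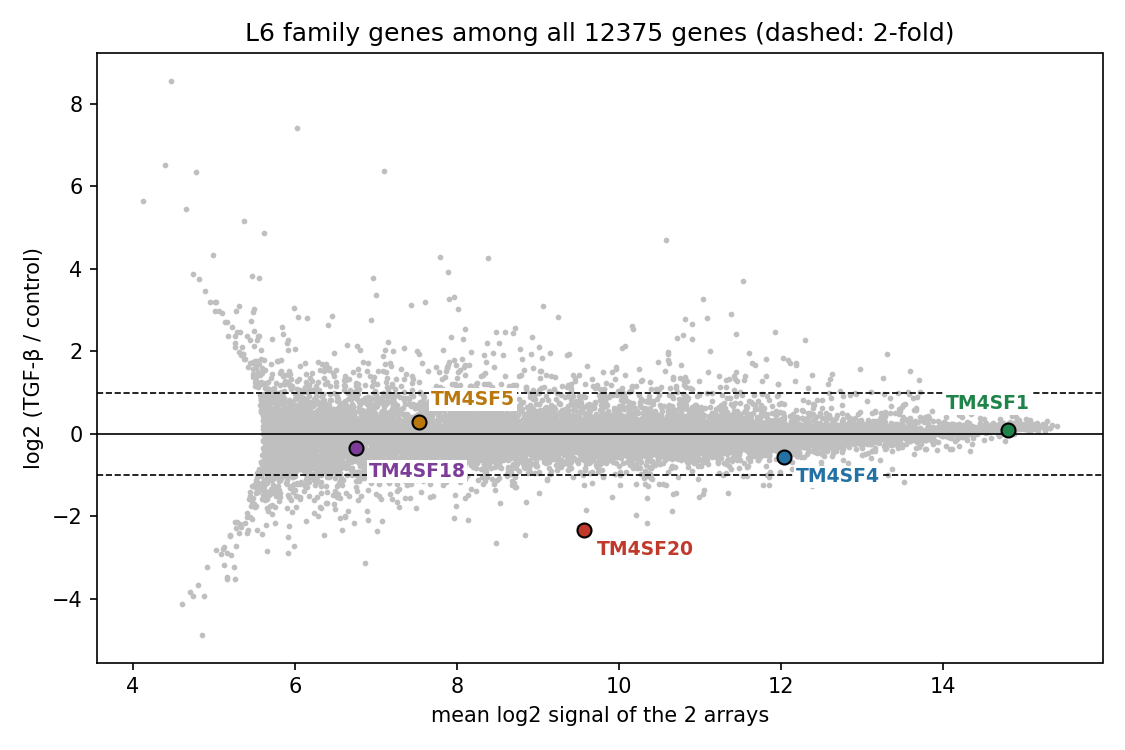
Log2 ratio of TGF-β to control (y axis) against the mean log2 signal (x axis) of 12375 genes (grey) with the 5 measured L6 family genes in color, all from signals as deposited, background included; dashed lines mark 2-fold. TM4SF20 at -2.34 lies below the cloud of genes of its brightness, TM4SF4 at -0.57 at the lower edge, and TM4SF1, TM4SF5 and TM4SF18 within it.

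Levels of different genes cannot be set against each other by array signals, since each probe set binds with its own strength. The genes whose pair of signals lay nearest to that of TM4SF20, by distance on the log2 scale over the 2 arrays, were ID4 and ID2, inhibitors of helix-loop-helix transcription factors. ID4 read 1599 without TGF-β and 333 with it, at a distance of 0.105, and ID2 read 1453 and 408, at 0.357. They were followed by the receptor ERBB3 (1640 and 565), the small GTPase RAB20 (1167 and 497) and the chemokine CXCL6 (1225 and 540). TM4SF4 lay nearest to AGFG1, SSU72 and MRPS18B, and TM4SF1 to EIF4G2, a translation factor, and the ribosomal protein genes RPL19 and RPS7. The nearest to TM4SF5 were NAPB, LOC101927247 and MAPDA, and those to TM4SF18 were PMS2P2, ITPRIPL1 and LHX4-AS1. With 2 arrays, nearness rests on 2 numbers per gene, so genes near a member differ between the arrays much as it does by the way they were picked.

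The genes beside each member on its chromosome were compared next. On chromosome 2, TM4SF20 is flanked by MFF, which recruits the mitochondrial fission machinery, and further out by COL4A3 and AGFG1. MFF went from 7867 in control cells to 6142, and AGFG1 from 5052 to 3522. COL4A3, a chain of basement membrane collagen, read 246 and 568 and was 2.30-fold higher. None of the measured neighbours of TM4SF20 fell as far as it did, and COL4A3 rose past 2-fold. Over all genes 0.275% fell as far as TM4SF20, so this sets no contrast. In the chromosome 3 cluster, the order of genes is CP, TM4SF18, TM4SF1, TM4SF4 and WWTR1. Ceruloplasmin (CP) went from 2124 to 1622 after TGF-β, while WWTR1, the Hippo pathway coactivator TAZ, went from 9870 to 11541. Of 12 measured neighbours of the 6 genes, COL4A3 was the 1 at least 2-fold higher and none was at least 2-fold lower. Their log2 fold changes ran from -0.52 to 1.20. With 3.94% of all genes higher and 2.96% lower by that rule, these counts set no contrast either. A further 4 neighbours were not analysed here.

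**Figure D3:**
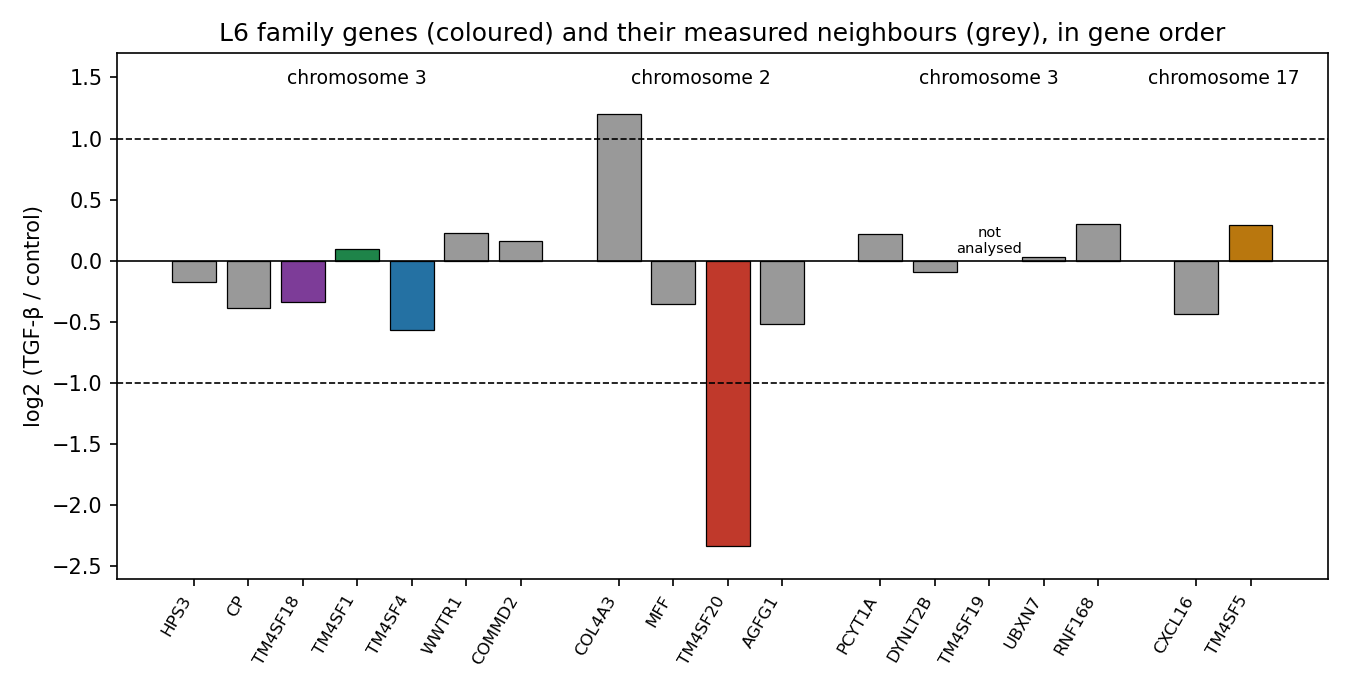
Log2 ratio of TGF-β to control (y axis, bars from 0) of L6 family genes (colored) and the measured protein-coding genes nearest to them (grey), in gene order within each chromosome block; dashed lines mark 2-fold. TM4SF20 at -2.34 stands beside MFF at -0.36 and AGFG1 at -0.52.

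L6 proteins are reported to associate with integrins, tetraspanins and receptor kinases at the cell surface. Of 12 measured genes for such partners, 2 were at least 2-fold higher, none was at least 2-fold lower, and the median log2 fold change was 0.30. Over all genes the shares were 3.94% higher and 2.96% lower, so the lack of lower genes among 12 sets no contrast. ITGA2, the integrin α2 chain of collagen receptors, went from 781 to 3095, 3.96-fold higher. ITGA5, the α5 chain of the fibronectin receptor, went from 252 to 509, 2.02-fold higher. The common β1 chain ITGB1 read 26429 and 32273, and CD9, CD63 and CD81, tetraspanins of the same membrane domains, had ratios between 1.01 and 1.09, while a further one, CD151, went from 2671 to 4062. The 2 integrin genes that passed 2-fold thus rose while TM4SF20 fell, and a link between them was not tested.

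Other families of 4-pass membrane proteins were set beside the L6 genes. Of 24 measured tetraspanins none was at least 2-fold lower, while TSPAN2 was 8.10-fold and TSPAN5 2.31-fold higher, and the median log2 fold change was 0.04. Of 9 measured claudins none was lower by that rule, and CLDN4 was at least 5.42-fold higher, its control signal being at background. Among the LRRC8 channel subunits, LRRC8C was the 1 of 5 that passed 2-fold, upward. At the share of 2.96% over all genes, lists of this size would hold few or no genes that far down, so these counts set no contrast with the L6 family.

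**Figure D4:**
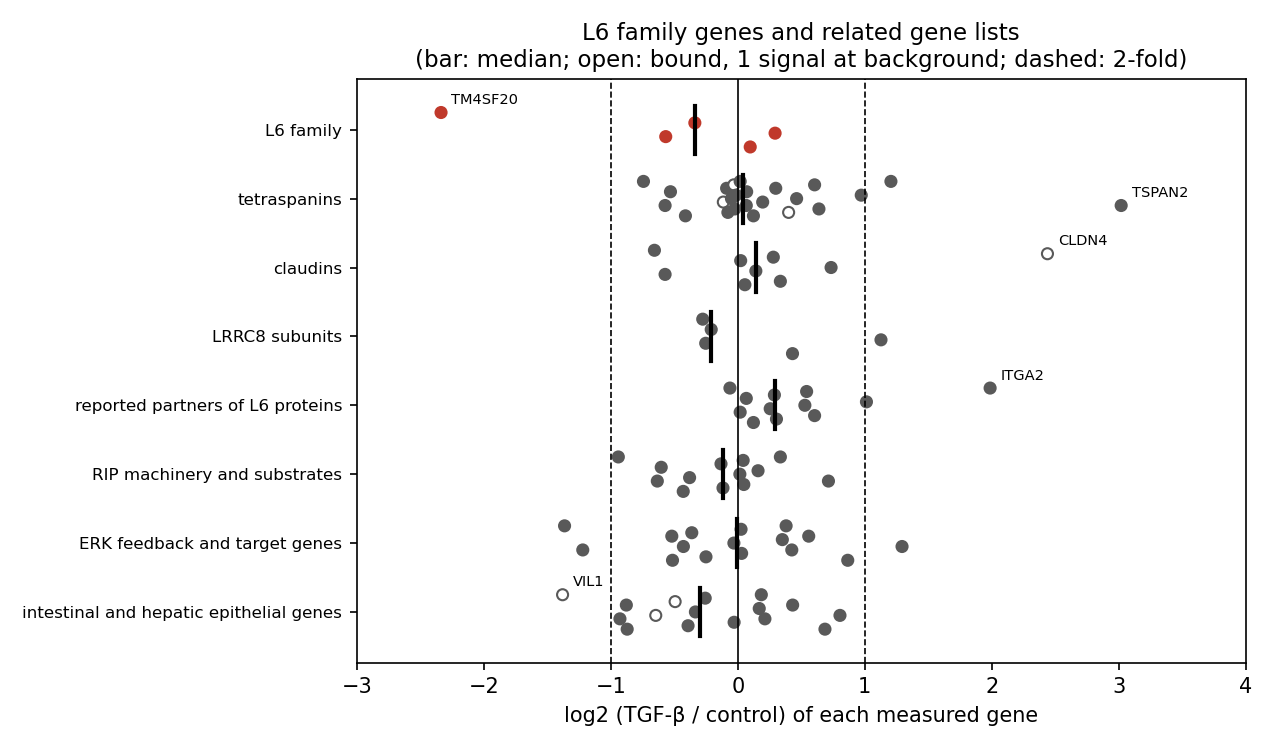
Log2 ratio of TGF-β to control of each measured gene of the L6 family (red) and of 7 related lists (grey); bars are medians, open points are bounds, with 1 signal raised to the background level, and dashed lines mark 2-fold. TM4SF20 at -2.34 has the lowest value shown, and VIL1 and CLDN4 are open points.

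The genes of the proteolysis that TM4SF20 was tested for changed less than TM4SF20, which 0.881% of all genes exceeded in size of change. None of 13 measured genes for RIP proteases, their escorts and substrates differed by 2-fold, and their median log2 fold change was -0.12. Over all genes 2.96% were at least 2-fold lower and 3.94% higher, so this count sets no contrast. CREB3L1, the substrate under study, went from 138 to 106. It was dim, with signals between those of TM4SF18 and TM4SF5, for which the spread on the log2 scale was 0.46 and 0.47. The log2 fold change of CREB3L1, -0.38, was smaller than that spread. MBTPS2, the site-2 protease, read 5416 and 4941, and MBTPS1, the site-1 protease, 533 and 596. The largest change in the list was that of SREBF2, a regulator of cholesterol synthesis and also dim, from 162 to 84.6.

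Feedback and target genes of the ERK kinases, which TGF-β can activate, did not move in 1 direction. Of 16 measured, IER3, an immediate early gene, was 2.45-fold higher, while SPRY1, an inhibitor of the pathway, was 2.57-fold lower and the transcription factor ETV1 2.33-fold lower. Their median log2 fold change was 0.00, and over all genes 3.94% were at least 2-fold higher and 2.96% lower. The ERK phosphatase DUSP6 went from 178 to 239.

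Genes of intestinal and hepatic epithelium, the tissues in which TM4SF20, TM4SF4 and TM4SF5 are best known, were followed as a list. Of 16 measured, 1 was at least 2-fold lower and none higher, beside 2.96% and 3.94% of all genes. The median log2 fold change was -0.30, beside -0.03 for all genes. VIL1, the actin bundler of the brush border, went from 147 to 33.9; since the TGF-β signal is at background, it was at least 2.60-fold lower. FOXA2, a transcription factor of endoderm, went from 1430 to 752, and CDH17, the liver-intestine cadherin, from 1024 to 813. The list held higher signals too, among them those of ANPEP, a brush border peptidase, from 240 to 419, and GATA6, another endoderm factor, from 574 to 923. These 4 values stayed within 2-fold.

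The treatment and the cells were described by lists of marker genes. Of 8 Smad-responsive genes, 7 were at least 2-fold higher, beside 3.94% of all genes. This list was chosen with earlier results of these data known, so it is no independent check of the treatment. All 6 markers of lung epithelial lines were above background on both arrays. E-cadherin (CDH1), at 2.31-fold lower, was the 1 that passed 2-fold, beside 2.96% of all genes lower by that rule. KRT19 and EPCAM were 1.51-fold and 1.35-fold lower, while KRT7, KRT8 and KRT18 were 1.55-fold, 1.17-fold and 1.13-fold higher, so the list did not move in 1 direction. Of 8 alveolar type II markers, 3 were kept, all under 200, and NKX2-1 and SFTPD were not. Markers of fibroblasts and endothelium, a cell type rich in TM4SF1, were near or under background, with 1 of 6 kept in each list (THY1 at 82.5 and 21.8, PECAM1 at 56.4 and 65.4). Of 6 immune markers 3 were kept, among them CD14 at 190 in the control and 63.0 with TGF-β. Both cultures were of the A549 line, so these lists give signal levels and no share of other cells.

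The values of the L6 genes were recomputed under 12 other ways of filtering, scaling and choosing probe sets. TM4SF20 was at least 2-fold lower in each of them and no other member reached 2-fold. TM4SF4 kept a lower signal after TGF-β in each, TM4SF5 a higher and TM4SF18 a lower one wherever they were measured. TM4SF1 took either sign. TM4SF20, TM4SF4 and TM4SF5 each have 1 probe set, with both signals above every floor used. Filters, floors and the choice of probe set could therefore at most drop their values, not change them. Only the scalings and the offset could move them.

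**Figure D5:**
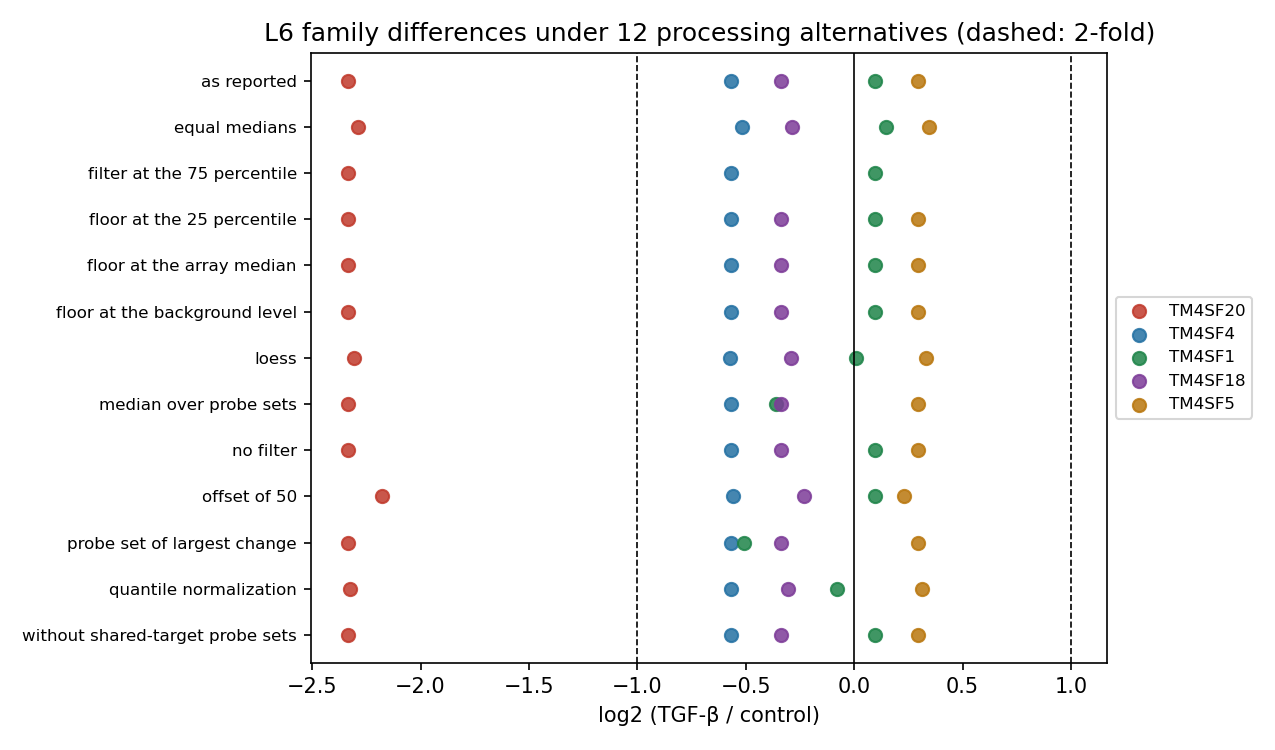
Log2 ratio of TGF-β to control (x axis) of the 5 measured L6 family genes under the reported setting and 12 processing alternatives (y axis); dashed lines mark 2-fold. TM4SF20 stays between -2.34 and -2.18, TM4SF4 between -0.57 and -0.52, and TM4SF1 lies on either side of 0.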

How the data were processed

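The authors deposited a single intensity, on a linear scale, for every probe set on each array. The program is named in the submitters' processing notes as MAS5, with no version, and other settings and the build were not stated. Leaving out the top and bottom 2% of signals, each array averaged 500.

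Log2 ratios of TGF-β to control were computed from the deposited values in Python 3.11.15 with pandas 2.3.3 and numpy 2.4.6, loess came from statsmodels 0.14.6, and plots from matplotlib 3.10.9. Gene names came from the platform annotation, updated by gene identifier to GRCh38.p14, and probe sets without exactly 1 symbol entered no gene count. Probe sets whose 2 signals averaged 48.7 or more (the median) were retained, 27307 in all, and the brightest of them stood for its gene. Genes whose deposited signals differed at least 2-fold were counted, by size alone. The counting was run on simulated data with 1 probe set per gene, the same noise at every brightness and no filter. That run does not bear on the counts of dim genes. For a single gene or probe set with 1 signal at background, that signal was raised to the background level and the fold given as a bound; counts did not use this step. The spread at a given brightness is the median absolute deviation over 500 probe sets, scaled by 1.48. The 12 alternatives changed filters, floors, an offset, the scaling or the choice of probe set. Only 2 arrays limit the precision.

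Members, lists, background level and alternatives were all chosen with earlier results of these data known. The genes named were the members, those nearest to them in both signals or on the chromosome, and for every list at most 3 rises and 3 falls past 2-fold, or the largest change. Further genes were named after their values were seen.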

Additional observations from a re-analysis of the deposited data

How the results depend on the processing

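Under all 12 alternatives TM4SF20 had a log2 fold change from -2.34 to -2.18. Filters, floors and the choice of probe set could not move its single bright probe set, so only the scalings and the offset bear on this range. In each alternative 1 member was at least 2-fold lower and 0 higher. The filter at percentile 75 kept 3 members and left out TM4SF5 and TM4SF18. TM4SF1 had a log2 fold change of -0.36 as the median of its probe sets, -0.51 by its most changed probe set and -0.08 after quantile normalization. Over all genes, 487 were at least 2-fold higher and 366 lower. Without a filter these counts were 2110 and 2395, at percentile 75 they were 197 and 63, and with 50 added to each signal 295 and 134. A floor at background left 204 genes lower, and choosing the most changed probe set gave 596, which by construction adds calls. Dim genes are the ones these filters and floors remove or shrink. No paired analysis was possible because each group had 1 array. Low signal over background limits TM4SF18 and the dim TM4SF1 probe sets most. The second TM4SF18 probe set, 230061_at, was used in none of the alternatives, so its deposited fall could not enter the counts of members.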
